A study of Mus musculus with 12 samples.

Results

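Cytochrome P450 enzymes of families 1, 2 and 3 were followed through 6 groups of sorted mouse hepatocytes. The set holds every gene of the deposited table whose symbol is Cyp followed by 1, 2 or 3, a letter and a number, apart from 3 symbols that are not analysed here. That rule gave 50 of the 16116 genes. It uses symbols only, but the set was chosen with earlier results of these data known. A filter on low values, log2 of at least 1 in at least 2 of the 12 libraries, kept 37 of the 50.

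Hepatocytes had YAP, the transcriptional coactivator at the end of the Hippo pathway, activated in 2 ways, and the progenitor transcription factor gene Sox9 was floxed on 1 or both alleles. In the YAP experiment, sorted 3 weeks after injection, the control was wild type mice given AAV2/8-TBG-GFP. The other groups were Sox9 fl/+ and Sox9 fl/fl mice given AAV2/8-TBG-Cre together with AAV2/8-TBG-YAP S127A-P2A-GFP, an activated YAP. In the Mst experiment, sorted 4 weeks after injection, all mice were Mst1 fl/fl and Mst2 fl/fl, that is floxed for the 2 Hippo kinases upstream of YAP, and carried the Cre reporter ROSA26-lsl-TdTomato. Its control received AAV2/8-TBG-GFP, and mice that also carried Sox9 fl/+ or Sox9 fl/fl received AAV2/8-TBG-Cre. Every mouse was injected at 3 weeks of age, TBG is a hepatocyte promoter, and cells were sorted as GFP or TdTomato positive and Epcam and CD45 negative. Neither control received Cre or carried a floxed Sox9 allele. Effects of Cre and of losing 1 or both Sox9 alleles therefore cannot be told apart from those of activation in comparisons with a control. The activated groups are called YAP heterozygotes (Sox9 fl/+), YAP nulls (Sox9 fl/fl), Mst heterozygotes and Mst nulls. Each group had 2 libraries, and whether these were made from separate mice is not said, so the p-values describe the spread of the libraries, which may be technical.

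P450 enzymes of these families sit in the endoplasmic reticulum and add oxygen to drugs, steroids, fatty acids and toxins, using a heme iron and electrons passed on by P450 oxidoreductase. In liver many of them are zonated: Cyp2e1, Cyp1a2 and several Cyp2c enzymes are made around the central vein under Wnt signalling, and Cyp2f2 is made around the portal vein. Others are induced through nuclear receptors (Cyp2b10 through CAR, Cyp3a11 through PXR) or through the aryl hydrocarbon receptor (Cyp1a1, Cyp1a2). Some, such as Cyp2a4, Cyp2c69 and Cyp3a44, are made more in females than in males under growth hormone.

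Values are log2 CPM (log2 of counts per library, scaled to a common total) from 1 amplicon per gene. A level can therefore be compared between libraries but not between genes. The summed level of 9 hepatocyte markers was between 53112.1 and 90152.3 CPM in the 12 libraries. The summed level of 8 bile duct markers, most of it Spp1, was 154.6 to 348.0 CPM in the controls, 1234.8 to 2478.3 CPM in the YAP groups and 3133.5 to 3753.6 CPM in the Mst-deleted groups. Of the 4 bile duct markers tested, 2, 1, 2 and 1 rose in the 4 comparisons with a control. Of all 10681 kept genes, 150, 709, 369 and 735 rose in the same order. Spp1 rose in each (3.50, 2.75, 4.17 and 4.41) and Sox9 in the Mst heterozygotes (2.5), while Sox9 fell in the Mst nulls (-2.38). The other was Epcam in the YAP heterozygotes (1.81, with log2 levels of 3.14 and 2.14 against 0.83 in both control libraries). Epcam passed the filter on low values only through activated libraries, where it is high, and its call is not used. Krt19 reached 1.53 in 1 YAP heterozygote library, and Krt7 and Cftr had log2 values of at most 0.03. Endothelial markers also moved with activation. Their summed level over 12 genes was 34.9 to 91.3 CPM in the controls, 133.0 to 378.7 CPM in the YAP groups and 422.2 to 530.8 CPM in the Mst-deleted groups. In the 4 comparisons with a control 2, 6, 9 and 10 of the 12 rose, beside the numbers over all kept genes given above. Fcgr2b was the lowest of the 12 in each (-0.21, -0.08, -0.50 and 0.16). The part of bile duct and endothelial markers in the P450 results was not tested. Fewer cells of a type and less RNA per cell cannot be told apart in such bulk samples. Sox9 was lower in the Sox9-null than in the Sox9-heterozygous group (-2.40 under YAP S127A and -4.88 after Mst deletion). Yap1 was higher than in the control under YAP S127A (0.91, adjusted p = 0.0755 and 1.19, adjusted p = 0.00556). The Mst genes Stk4 (-0.36 and -0.56) and Stk3 (0.22 and 0.31) did not pass after deletion, but the position of their amplicons relative to the deleted part is not given, so they check nothing. Gene by gene, the 2 controls had the same mean (98.9% of genes within 0.05), so both experiments are in effect measured from 1 control mean. Among the Mst libraries the mean of the first ones also equalled that of the second ones (99.9% of genes within 0.05, against 15.6% in the YAP experiment), so the fit counts 1 residual degree of freedom that the values do not hold. For 14750 of the 16116 genes, differences between the 2 libraries of a group were whole multiples of 1 step per gene, within a small tolerance. This was read as 1 factor per gene that multiplied the distance of each library from its group mean before deposition. That reading assumes the same original step for all genes, and the labels name no such adjustment. The inferred factor had a median of 1.58 over the kept genes and of 2.80 over the 37 P450 genes. On this reading the spread of these genes was widened more than that of most. Tests are given as deposited and with the inferred widening undone.

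Many of the P450 genes are near copies of each other, and the promoters printed here belong to the genes on which the results turn, each beside a close relative that went another way or the same way. RefSeq (GRCm38.p6) promoter windows were matched for 43 of the 50 genes. Shown are the 250 bases before the annotated start, 5′ to 3′ on the gene's own strand. Capitals mark matches on either strand to motifs searched for: GCGTG (core of the element bound by the aryl hydrocarbon receptor), CTTTGA (core of the TCF/LEF element of Wnt signalling), CAAAGTCCA (an HNF4 element), GTTAAT (part of the HNF1 element) and TATAAA (the TATA box).
Cyp2c68 (chr19:39741102-39741351, minus strand): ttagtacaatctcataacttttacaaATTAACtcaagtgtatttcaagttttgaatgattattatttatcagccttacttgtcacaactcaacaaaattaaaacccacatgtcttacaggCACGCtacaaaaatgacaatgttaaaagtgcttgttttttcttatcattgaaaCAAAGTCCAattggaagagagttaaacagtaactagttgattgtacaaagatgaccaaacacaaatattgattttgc
Cyp2c69 (chr19:39886770-39887019, minus strand): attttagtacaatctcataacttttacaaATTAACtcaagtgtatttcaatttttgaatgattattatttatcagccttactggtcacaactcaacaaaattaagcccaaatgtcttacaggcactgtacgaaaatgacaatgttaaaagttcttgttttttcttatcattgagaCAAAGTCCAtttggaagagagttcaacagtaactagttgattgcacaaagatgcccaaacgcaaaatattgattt
Cyp2c67 (chr19:39649043-39649292, minus strand): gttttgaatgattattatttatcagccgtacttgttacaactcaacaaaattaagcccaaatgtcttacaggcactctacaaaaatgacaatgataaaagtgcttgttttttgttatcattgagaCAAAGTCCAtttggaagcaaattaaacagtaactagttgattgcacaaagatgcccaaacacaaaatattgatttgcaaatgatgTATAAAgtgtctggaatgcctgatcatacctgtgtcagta
Cyp2c37 (chr19:39992174-39992423, plus strand): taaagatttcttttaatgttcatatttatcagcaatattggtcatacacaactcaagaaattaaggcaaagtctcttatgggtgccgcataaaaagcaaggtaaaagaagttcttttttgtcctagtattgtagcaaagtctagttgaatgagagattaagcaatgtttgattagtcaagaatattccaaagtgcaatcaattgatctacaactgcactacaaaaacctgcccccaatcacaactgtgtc
Cyp2c50 (chr19:40089429-40089678, plus strand): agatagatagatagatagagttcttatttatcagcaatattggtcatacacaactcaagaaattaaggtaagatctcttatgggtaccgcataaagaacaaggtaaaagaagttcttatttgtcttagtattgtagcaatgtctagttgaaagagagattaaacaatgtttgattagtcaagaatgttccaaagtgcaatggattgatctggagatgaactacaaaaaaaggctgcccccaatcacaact
Cyp2c39 (chr19:39510572-39510821, plus strand): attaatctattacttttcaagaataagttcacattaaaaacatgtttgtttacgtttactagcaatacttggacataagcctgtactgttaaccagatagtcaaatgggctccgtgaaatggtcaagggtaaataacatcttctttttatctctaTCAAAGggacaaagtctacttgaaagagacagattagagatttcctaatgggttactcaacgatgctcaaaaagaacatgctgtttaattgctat
Cyp2c38 (chr19:39463076-39463325, minus strand): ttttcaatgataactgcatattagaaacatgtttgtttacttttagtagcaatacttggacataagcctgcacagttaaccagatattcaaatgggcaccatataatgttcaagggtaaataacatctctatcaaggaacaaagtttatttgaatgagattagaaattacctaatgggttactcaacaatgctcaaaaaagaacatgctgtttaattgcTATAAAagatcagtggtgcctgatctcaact
Cyp2e1 (chr7:140763569-140763818, plus strand): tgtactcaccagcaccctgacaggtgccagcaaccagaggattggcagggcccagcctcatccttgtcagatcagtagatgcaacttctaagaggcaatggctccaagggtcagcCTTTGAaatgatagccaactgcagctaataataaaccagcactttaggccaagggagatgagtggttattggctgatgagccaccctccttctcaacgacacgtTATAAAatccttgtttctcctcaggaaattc
Cyp3a59 (chr5:146079008-146079257, plus strand): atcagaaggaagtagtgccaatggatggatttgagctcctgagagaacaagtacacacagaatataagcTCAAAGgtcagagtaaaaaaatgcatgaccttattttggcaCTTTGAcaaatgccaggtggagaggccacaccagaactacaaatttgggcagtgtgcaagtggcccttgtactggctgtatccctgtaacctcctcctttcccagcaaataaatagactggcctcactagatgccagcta
Cyp3a25 (chr5:146009619-146009868, minus strand): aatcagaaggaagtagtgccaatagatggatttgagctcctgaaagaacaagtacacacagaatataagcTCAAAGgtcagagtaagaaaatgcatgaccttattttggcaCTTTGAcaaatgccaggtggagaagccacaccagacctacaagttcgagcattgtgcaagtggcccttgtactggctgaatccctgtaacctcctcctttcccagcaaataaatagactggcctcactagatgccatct

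Aligned end to end, these upstream sequences were 91.3% identical between Cyp2c68 and Cyp2c69, 84.3% between Cyp2c37 and Cyp2c50, 71.0% between Cyp2c38 and Cyp2c39 and 94.8% between Cyp3a25 and Cyp3a59. Within the whole window of 300 bases, the HNF4 element stood in 7 of the 43 P450 genes matched (16.3%) and in 0.475% of the 32851 windows in the table. These were Cyp2c65, Cyp2c67, Cyp2c68, Cyp2c69, Cyp2c70, Cyp3a11 and Cyp3a16, several of which are near copies of each other. A TATA box stood in 24 of the 43 (55.8%, against 13.6% of all windows). The TCF/LEF core stood in 11 (25.6%, against 16%), the HNF1 part in 5 (11.6%, against 7.1%) and the aryl hydrocarbon receptor core in 7 (16.3%, against 32.4%). A match is a description of letters and does not mark a site of binding.

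Coding sequences were taken as the longest open reading frame in GENCODE M21. They were closer than the upstream sequences for these pairs, apart from Cyp2c68 and Cyp2c69. Of the 50 genes, 24 were at least 90% identical to another of them. Cyp2c67 and Cyp2c68 were 97.2% identical, Cyp3a25 and Cyp3a59 97.5%, Cyp2a12 and Cyp2a22 97.0%, Cyp2c37 and Cyp2c50 96.1%, Cyp2a4 and Cyp2a5 94.8%, Cyp2c38 and Cyp2c39 94.2%, and Cyp2c68 and Cyp2c69 91.2%. The labels do not give the position of each amplicon. Values of such genes are therefore uncertain to the extent that reads from a near copy were counted for them.

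Over all P450 genes tested, the levels in activated hepatocytes lay below the control more often than above it. Of 37, 27 had a negative difference in the YAP heterozygotes, and 28 had one in each of the YAP nulls, Mst heterozygotes and Mst nulls. The median difference was -0.29, -0.43, -0.56 and -0.35 in that order, and the median over all kept genes was 0.07, 0.21, 0.08 and 0.17. Few single genes passed the test, a limma fit over all 12 libraries with Benjamini-Hochberg adjustment over 10681 genes and a threshold of 0.05. In the YAP heterozygotes 1 of 37 fell (1.57% of all kept genes were called), while among the YAP nulls 1 of 37 fell (7.12%). In the Mst heterozygotes 1 fell (4.25%), and in the Mst nulls 4 fell and 1 rose (7.76%). The shares count calls in both directions, and most of those calls were rises (89.3%, 93.3%, 81.3% and 88.7%). Of the 10681 kept genes, 18, 51, 85 and 94 fell in the same order. Calls among the P450 genes are small numbers, and whether falls were more frequent among them was not tested. The 4 calls in the Mst nulls other than Cyp2c68 ended with no filter on low values (adjusted p = 0.148 to 0.175) and without a trend in the prior (0.0598 to 0.0734), and those of Cyp2c69 and Cyp2d40 with only the 6 libraries of the experiment (0.0739 and 0.0549). Quantile normalization moved the median of all kept genes in the YAP nulls from 0.21 to -0.08, and the share of all calls there that were higher from 93.3% to 78.4%.

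Without adjustment, 6, 7, 13 and 8 of the 37 were under 0.05 in the same order. The counts without adjustment, here and below, have no share over all kept genes beside them. They are given as description and are not read as a result about the P450 genes. The 2 activated groups of an experiment share their control libraries and are given side by side throughout. Both libraries lay below both control libraries for 10 of 37 in the YAP heterozygotes (12.6% of all kept genes did), 6 in the YAP nulls (11.1%), and 15 in each Mst-deleted group (16.1% and 12.8% of all kept genes). Both lay above the control for 0 (21.6%), 4 (40.5%), 8 (29.2%) and 8 (39.6%). With the widening of the within-group distances undone, 11 of 37 (11.6% of all kept genes), 17 (27.8%), 19 (19.8%) and 21 (26.4%) were called in the same 4 comparisons.

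**Figure D1:**
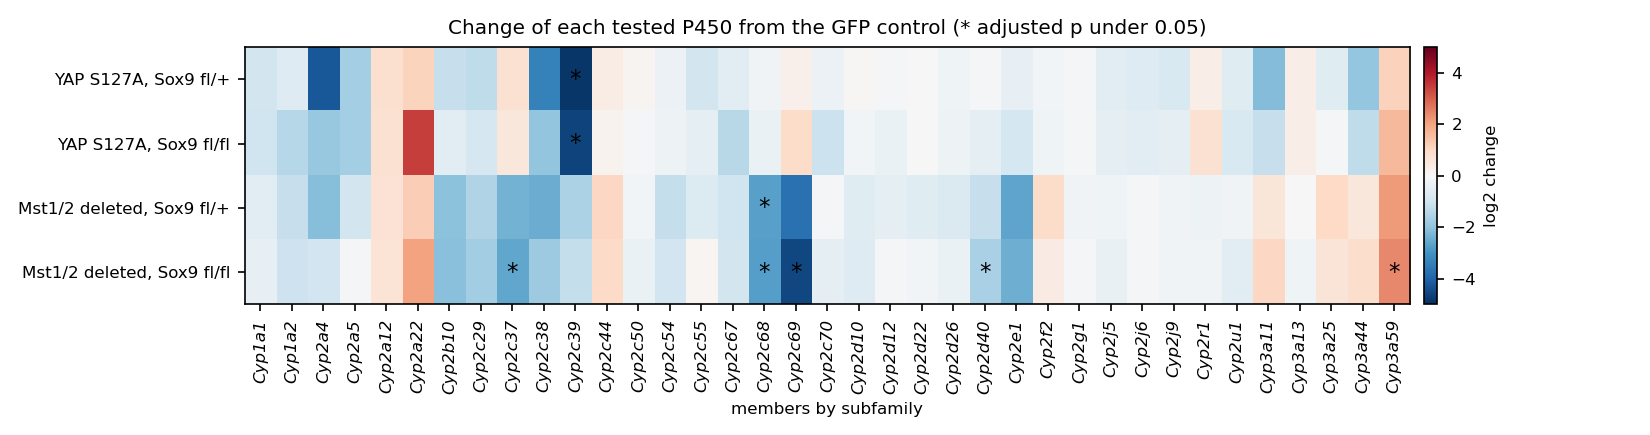
Log2 difference from the GFP control of each of the 37 tested P450 genes (columns, by subfamily) in the 4 activated groups (rows), blue for lower and red for higher, with an asterisk where the adjusted p was under 0.05. Asterisks stand at Cyp2c39 in both YAP rows, at Cyp2c68 in both Mst rows and at Cyp2c37, Cyp2c69, Cyp2d40 and Cyp3a59 in the Mst null row.

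Cyp2c68 fell after Mst deletion in both groups, under every alternative tried. It lies on chromosome 19, 39688834 to 39741054, minus strand (GRCm38, GENCODE M21), in the Cyp2c cluster. Its log2 level was 7.34 and 7.93 in the floxed control, 4.63 and 5.25 in the Mst heterozygotes and 5.47 and 4.31 in the Mst nulls, so that all 4 deleted libraries lay below both controls. In the YAP experiment the levels were 7.62 and 7.65 in the wild type control, 7.85 and 7.05 in the heterozygotes and 6.48 and 8.11 in the nulls, and the groups overlapped. Cyp2c68 fell by 2.70 ± 0.46 (SE; adjusted p = 0.00247), a fold of 6.48, in the Mst heterozygotes and by 2.74 ± 0.46 (adjusted p = 0.00141), a fold of 6.7, in the Mst nulls. Under YAP S127A its difference was -0.18 ± 0.46 (adjusted p = 0.948) and -0.34 ± 0.46 (adjusted p = 0.748). With any 1 library of a comparison left out it stayed called, with an adjusted p of at most 0.0359 and 0.0183 in the 2 Mst groups.

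The gene next to it, Cyp2c69, is made mainly in females and lies at 39842814 to 39886799 on the minus strand. The log2 level of this gene was 3.79 and 0.99 in the floxed control, -2.94 and 0.27 in the Mst heterozygotes and -2.05 and -2.27 in the Mst nulls. The 4 deleted libraries lay below both controls, but the 2 control libraries themselves stood far apart. With YAP S127A the gene overlapped its control, at 2.59 and 2.19 in the control, 3.14 and 2.11 in the heterozygotes and 1.06 and 5.52 in the nulls. Cyp2c69 fell in the Mst nulls (-4.55 ± 1.19, adjusted p = 0.0261), and its difference in the Mst heterozygotes was -3.72 ± 1.19 (adjusted p = 0.101). At this low level the size depends on the offset of the log scale. With 1 CPM added before the log the difference in the Mst nulls was -2.44 and the call ended (adjusted p = 0.122). The call also ended without library 1 of the floxed control (-3.15) and without library 1 (-4.66) or library 2 (-4.44) of the Mst nulls.

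Cyp2c67, 97.2% identical to Cyp2c68 in its coding sequence, is the third of these neighbours and lies at 39608842 to 39649051. Its log2 level was 6.86 and 7.47 in the floxed control, 6.40 and 5.94 in the Mst heterozygotes and 6.33 and 6.15 in the Mst nulls. Its differences were -1.0 ± 0.45 and -0.92 ± 0.45 (adjusted p = 0.277 and 0.271), with no overlap between libraries. Under YAP S127A they were -0.52 ± 0.45 (adjusted p = 0.783) and -1.38 ± 0.45 (adjusted p = 0.0771). The near copies thus had different values in the same libraries, whatever reads they share.

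Cyp2c37, a pericentral member of the cluster, lies on chromosome 19, 39992424 to 40012243, plus strand. The log2 level of this gene was 7.46 and 6.70 in the floxed control, 4.59 and 4.81 in the Mst heterozygotes and 4.22 and 4.77 in the Mst nulls. The 4 deleted libraries stayed within 4.22 to 4.81, below every other library of the series. In the YAP experiment it was 6.45 and 7.65 in the control, 8.37 and 7.26 in the heterozygotes and 9.16 and 6.06 in the nulls. Cyp2c37 fell in the Mst nulls (-2.59 ± 0.68, adjusted p = 0.0281, a fold of 6.0), and its difference in the Mst heterozygotes was -2.38 ± 0.68 (adjusted p = 0.0651). With YAP S127A it differed by 0.77 ± 0.68 and 0.56 ± 0.68 (adjusted p = 0.796 and 0.713). The call in the Mst nulls ended without library 1 (-2.20) or library 2 (-2.97) of the floxed control and without library 1 of that group (-2.31). Without library 2 of the YAP nulls Cyp2c37 was called there (2.11), and without library 1 it was at -0.99.

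Its near copies Cyp2c50 and Cyp2c54, also pericentral, were closer to the control. Cyp2c50 was at 9.77 and 8.82 in the floxed control, 8.76 and 9.56 in the Mst heterozygotes and 8.85 and 9.04 in the Mst nulls, and the groups overlapped. Its differences were -0.14 ± 0.49 and -0.35 ± 0.49 (adjusted p = 0.947 and 0.789). Those of Cyp2c54 were -1.19 ± 0.58 and -0.97 ± 0.58 (adjusted p = 0.332 and 0.407).

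**Figure D2:**
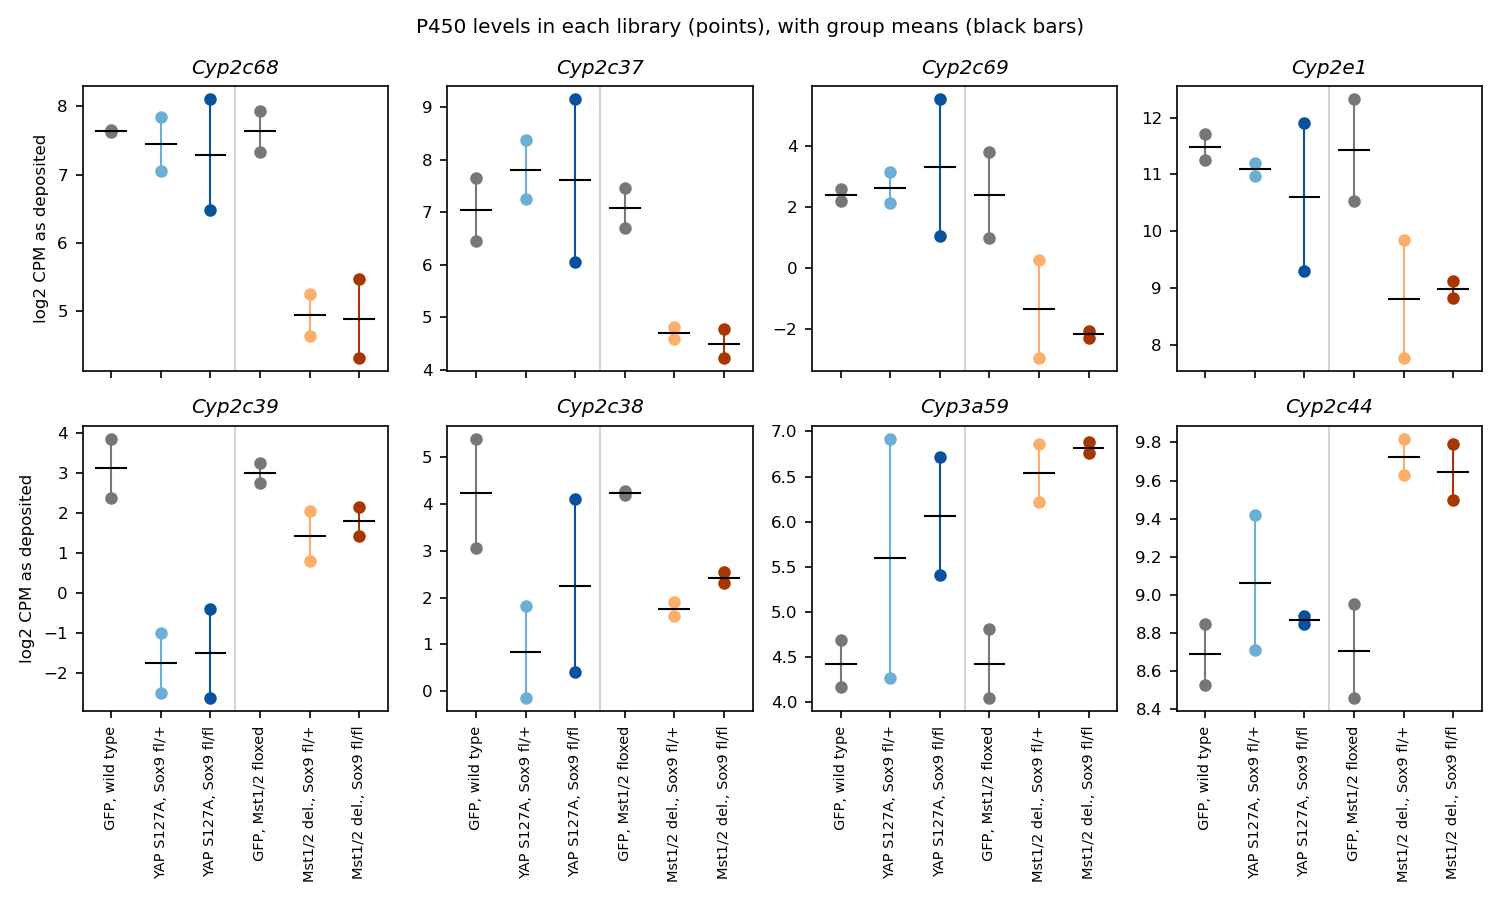
Log2 CPM of 8 P450 genes in each of the 12 libraries (points; a vertical line joins the 2 libraries of a group and a black bar marks their mean), with the YAP experiment left of the grey line and the Mst experiment right of it. Cyp2c68, Cyp2c37, Cyp2c69 and Cyp2e1 were lower in the 4 Mst-deleted libraries, and Cyp2c39 was lower in the 4 YAP S127A libraries.

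Cyp2e1, which oxidises ethanol and paracetamol and marks the pericentral zone, lies on chromosome 7. Its log2 level was 12.33 and 10.53 in the floxed control, 7.76 and 9.84 in the Mst heterozygotes and 9.13 and 8.82 in the Mst nulls. All 4 deleted libraries lay below both controls, which differed from each other. The differences were -2.63 ± 0.75 (adjusted p = 0.0624, a fold of 6.2) and -2.46 ± 0.75 (adjusted p = 0.0582, a fold of 5.49), just short of the threshold. With the widening undone, both passed (adjusted p = 0.000186 and 0.000198). Levels with YAP S127A were 11.71 and 11.26 in the control, 11.20 and 10.98 in the heterozygotes and 11.90 and 9.29 in the nulls, with differences of -0.40 and -0.89 (adjusted p = 0.923 and 0.56). Cyp2e1 was called without library 2 of the floxed control (-3.53 and -3.35) and, in the Mst heterozygotes, without its library 2 (-3.67). Without library 2 of the YAP nulls the difference there was 0.41, and without library 1 it was -2.20.

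Cyp1a2, a caffeine and arylamine oxidising enzyme of the pericentral zone, differed by -1.15 ± 0.51 and -1.03 ± 0.51 in the Mst-deleted groups (adjusted p = 0.275 and 0.287). The log2 level of this gene was 10.42 and 9.29 in the floxed control, 8.24 and 9.15 in the Mst heterozygotes and 8.71 and 8.93 in the Mst nulls, without overlap. In the YAP experiment it was 10.89 and 8.94 in the control, 9.32 and 9.25 in the heterozygotes and 8.19 and 8.79 in the nulls. The differences there were -0.63 ± 0.51 and -1.43 ± 0.51 (adjusted p = 0.76 and 0.111). The 2 wild type libraries stood so far apart that the first of these was -1.60 without library 2 of that control and 0.34 without library 1. Without library 2 of the wild type control Cyp1a2 was called in the YAP nulls (-2.40). Its inducible relative Cyp1a1 was at or under 2.54 in every library, with differences of -1.01 to -0.40, none called.

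Over the 9 genes listed as pericentral (Cyp2e1, Cyp1a2, Cyp2c29, Cyp2c37, Cyp2c50, Cyp2c54, Cyp2c68, Cyp3a11 and Cyp2a5), 0 fell in the YAP groups by limma (1 in each without adjustment). After Mst deletion 1 and 2 of the 9 fell (5 and 4 without adjustment), where 85 and 94 of the 10681 kept genes fell. The summed level of Cyp2e1, Cyp1a2, Cyp2c37 and Cyp2c68, most of it Cyp2e1 and Cyp1a2, was 2455.4 to 6849.4 CPM in the 4 control libraries. It was 1410.9 to 4770.0 CPM in the YAP libraries and 569.3 to 1549.8 CPM in the Mst-deleted ones. These 4 do not stand for all 9. After Mst deletion Cyp3a11 had positive differences (0.59 and 1.04), as 1 of the 9, and Cyp2c50 stayed near the control (-0.14 and -0.35). The medians of the 9 were -0.40 and -0.83 in the YAP groups and -1.19 and -1.03 in the Mst groups. Cyp2c29, a phenobarbital-inducible member of the cluster, was at 12.09 and 10.69 in the floxed control, 9.97 and 9.76 in the Mst heterozygotes and 8.81 and 10.51 in the Mst nulls. Its differences were -1.52 ± 0.67 and -1.73 ± 0.67 (adjusted p = 0.271 and 0.152) after Mst deletion and -1.27 and -0.83 (adjusted p = 0.553 and 0.542) under YAP S127A. In all 4 comparisons its activated libraries lay below the control. The periportal Cyp2f2 was at 10.45 and 10.32 in the floxed control, 11.36 and 11.23 in the Mst heterozygotes and 10.64 and 10.93 in the Mst nulls. Its libraries lay above the control by 0.90 ± 0.38 and 0.40 ± 0.38 on average (adjusted p = 0.246 and 0.65), and under YAP S127A its differences were -0.13 and -0.21.

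Under YAP S127A the P450 gene that fell was Cyp2c39, an enzyme that can oxidise retinoic acid, on chromosome 19, 39510862 to 39568529, plus strand. Its log2 level was 2.36 and 3.85 in the wild type control, -0.99 and -2.50 in the YAP heterozygotes and -0.39 and -2.62 in the YAP nulls. The 4 YAP S127A libraries lay below every other library. In the Mst experiment it was 3.25 and 2.73 in the floxed control, 0.79 and 2.05 in the heterozygotes and 2.14 and 1.43 in the nulls, also below the control. Cyp2c39 fell by 4.85 ± 0.72 (adjusted p = 0.00172) and by 4.61 ± 0.72 (adjusted p = 0.000924) under YAP S127A. Its differences after Mst deletion were -1.57 ± 0.72 and -1.20 ± 0.72 (adjusted p = 0.3 and 0.407). With 1 CPM added before the log, the size under YAP S127A was -2.87 and -2.77, still called, so the fitted fold depends on that offset. It stayed called with any 1 library left out (adjusted p of at most 0.0357 and 0.0238).

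Its neighbour Cyp2c38, 94.2% identical in the coding sequence, had the same direction with a wider spread. It was at 3.06 and 5.39 in the wild type control, 1.81 and -0.14 in the YAP heterozygotes and 4.10 and 0.41 in the YAP nulls. In the Mst experiment it was at 4.28 and 4.19 in the control, 1.60 and 1.91 in the heterozygotes and 2.54 and 2.30 in the nulls. The Mst libraries of each group stood close together, and the YAP libraries did not. The differences were -3.39 ± 0.91 (adjusted p = 0.0857) and -1.97 ± 0.91 (adjusted p = 0.23) under YAP S127A and -2.48 ± 0.91 (adjusted p = 0.17) and -1.81 ± 0.91 (adjusted p = 0.294) after Mst deletion. These 2 genes are near copies, and whether they share reads was not tested.

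**Figure D3:**
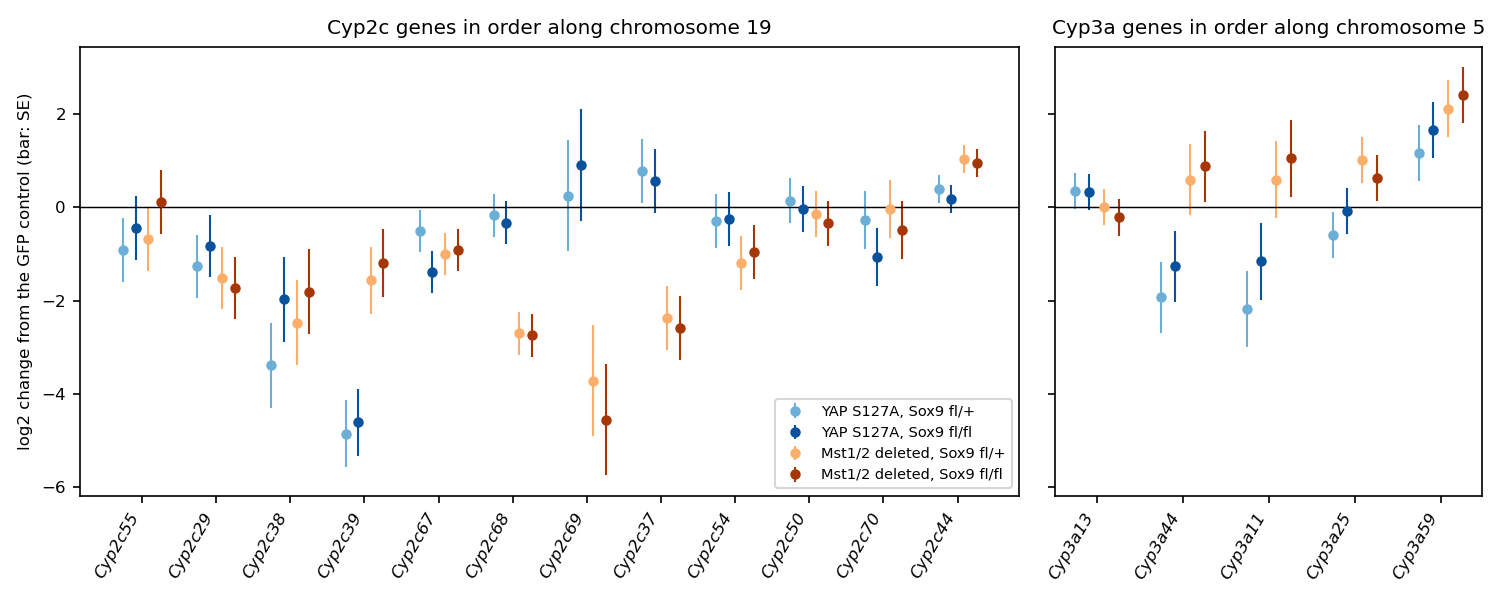
Log2 difference from the GFP control (points) with its standard error (bars) for the tested Cyp2c genes of chromosome 19 and the tested Cyp3a genes of chromosome 5, in chromosomal order (not to scale). After Mst deletion the neighbours Cyp2c68, Cyp2c69 and Cyp2c37 had differences between -4.55 and -2.38, and under YAP S127A Cyp2c38 and Cyp2c39 had differences between -4.85 and -1.97.

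Along the Cyp2c cluster of chromosome 19 the values did not form 1 block. From Cyp2c55 at 39007019 to Cyp2c70, which ends at 40187333, the order of the kept genes was Cyp2c55, Cyp2c29, Cyp2c38, Cyp2c39, Cyp2c67, Cyp2c68, Cyp2c69, Cyp2c37, Cyp2c54, Cyp2c50 and Cyp2c70. After deletion of Mst with 1 floxed Sox9 allele, their differences were -0.68, -1.52, -2.48, -1.57, -1.0, -2.70, -3.72, -2.38, -1.19, -0.14 and -0.04. Under YAP S127A with 1 floxed allele, they were -0.92, -1.27, -3.39, -4.85, -0.52, -0.18, 0.24, 0.77, -0.29, 0.14 and -0.28. After Mst deletion Cyp2c69 and Cyp2c68 had the lowest of these values, followed by Cyp2c38 and Cyp2c37, whereas under YAP S127A Cyp2c39 and Cyp2c38 had the lowest. Cyp2c70, which makes the muricholic acids of mouse bile, was at 9.76 and 9.79 in the Mst heterozygotes and 10.01 and 9.63 in its control.

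Cyp2c44 lies apart from the cluster on chromosome 19, at 44005022 to 44029208, and makes epoxides of arachidonic acid. The log2 level of this gene was 8.95 and 8.46 in the floxed control, 9.63 and 9.82 in the Mst heterozygotes and 9.50 and 9.79 in the Mst nulls. The 4 deleted libraries lay above every other library of the series (the highest of which was 9.42). On average they were 1.02 ± 0.30 and 0.94 ± 0.30 higher (adjusted p = 0.0709 and 0.0689), which passed with the widening undone (adjusted p = 0.000159 and 0.000176). Under YAP S127A they were 0.38 and 0.18 (adjusted p = 0.752 and 0.802).

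In the Cyp3a subfamily, the main steroid and drug oxidising P450 enzymes, the differences were positive after Mst deletion for most genes. Cyp3a59, on chromosome 5, 146079257 to 146113287, plus strand, was at 4.05 and 4.81 in the floxed control, 6.86 and 6.22 in the Mst heterozygotes and 6.88 and 6.76 in the Mst nulls. Among the YAP libraries it was at 4.17 and 4.69 in the control, 6.92 and 4.27 in the heterozygotes and 6.72 and 5.41 in the nulls. Only 1 activated library of 8, library 2 of the YAP heterozygotes, overlapped the controls. Cyp3a59 rose in the Mst nulls (2.39 ± 0.60, adjusted p = 0.0219, a fold of 5.24). The other differences were 2.11 ± 0.60 (adjusted p = 0.064) in the Mst heterozygotes, 1.16 ± 0.60 (adjusted p = 0.538) in the YAP heterozygotes and 1.64 ± 0.60 (adjusted p = 0.121) in the YAP nulls. The call ended without library 1 of the floxed control (2.01) and without library 1 (2.33) or library 2 (2.45) of the Mst nulls. Under quantile normalization the value was 2.18 and the adjusted p 0.0514. Without library 2 of the YAP heterozygotes Cyp3a59 was called there (2.49), and without library 1 it was at -0.16.

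Its near copy Cyp3a25 was at 7.19 and 7.95 in the floxed control, 8.68 and 8.46 in the Mst heterozygotes and 8.41 and 8.00 in the Mst nulls. Its differences were 1.0 ± 0.49 and 0.63 ± 0.49 (adjusted p = 0.33 and 0.55) there and -0.60 and -0.08 under YAP S127A. Cyp3a11, the target of PXR, was at 11.26 and 10.81 in the floxed control, 11.84 and 11.40 in the Mst heterozygotes and 11.61 and 12.53 in the Mst nulls, all 4 above both controls. In the YAP experiment it was at 10.22 and 11.82 in the control, 9.54 and 8.14 in the heterozygotes and 11.59 and 8.15 in the nulls. Its differences were -2.18 ± 0.82 and -1.16 ± 0.82 (adjusted p = 0.293 and 0.472) under YAP S127A and 0.59 ± 0.82 and 1.04 ± 0.82 (adjusted p = 0.814 and 0.56) after Mst deletion. Cyp3a44, made mainly in females, had -1.93 and -1.27 under YAP S127A and 0.58 and 0.87 after Mst deletion, with adjusted p values from 0.333 to 0.798. Cyp3a13 lies apart from the others and stayed between -0.22 and 0.34.

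The 2 ways of activation were compared by testing the Sox9-heterozygous Mst effect minus the Sox9-heterozygous YAP effect, whether or not the signs differed. By limma, 0 of 37 passed as deposited (0.197% of all kept genes did), and 7 were under 0.05 without adjustment. Cyp2c68 had a difference of -2.51 ± 0.65 (adjusted p = 0.225 by limma), Cyp2c37 of -3.15 ± 0.97 (adjusted p = 0.337) and Cyp2c39 of 3.28 ± 1.02 (adjusted p = 0.35). That of Cyp2c69 was -3.96 ± 1.68 (adjusted p = 0.597), of Cyp2e1 -2.23 ± 1.06 (adjusted p = 0.655) and of Cyp3a11 2.77 ± 1.15 (adjusted p = 0.589). The deposited spread therefore did not separate the 2 models for any of these genes. With the widening undone, 10 of 37 passed (5.91% of all kept genes).

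**Figure D4:**
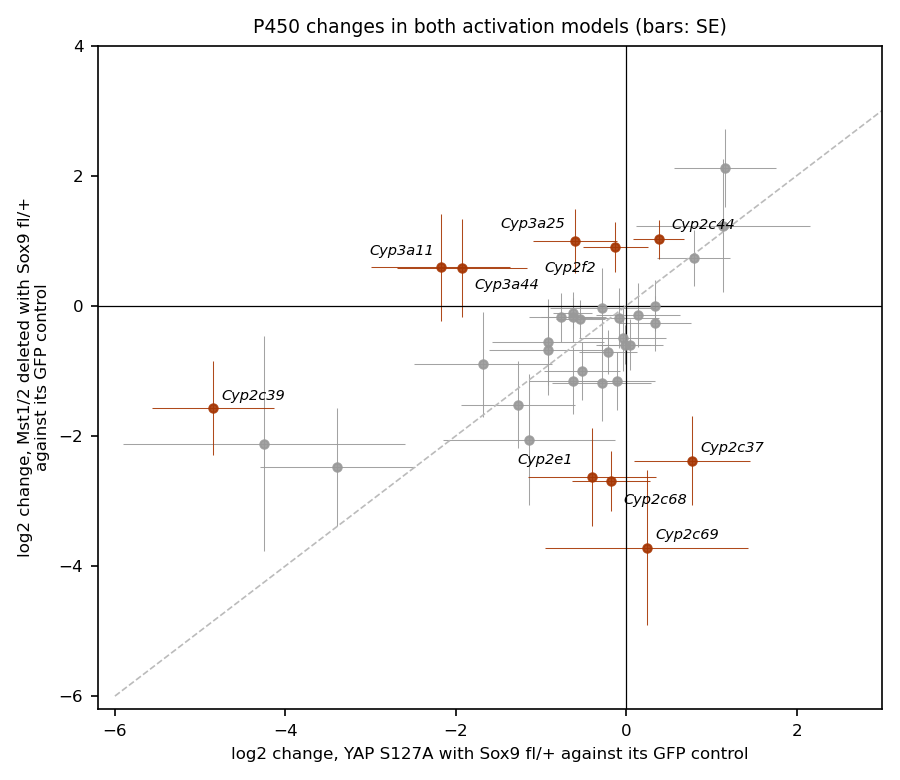
Log2 difference from the control after Mst deletion (vertical) against that under YAP S127A (horizontal), both with 1 floxed Sox9 allele, for the 37 tested P450 genes, with standard errors as bars and a dashed line of equal values. The 10 genes in orange are those whose difference between the models passed only with the widening of the within-group distances undone, and as deposited none did.

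Between Sox9-null and Sox9-heterozygous hepatocytes no P450 gene passed the threshold. By limma, 0 of 37 were called between the YAP nulls and the YAP heterozygotes (0.169% of all kept genes, 1 P450 gene without adjustment). Between the Mst groups 0 were called as well (0.0468%, 0 without adjustment), as over both experiments together (0.131%, 1 without adjustment). The effects of Sox9 loss in the 2 experiments did not differ past the threshold either (0 of 37, 0% of all kept genes, 0 without adjustment). Cyp2a22 was the gene under 0.05 without adjustment, with 2.35 ± 1.02 in the YAP experiment (adjusted p = 0.722 by limma) and 1.57 ± 0.72 over both (adjusted p = 0.517). With the widening undone, Cyp1a2 (-0.80, adjusted p = 0.0465) and Cyp2c67 (-0.87, adjusted p = 0.0265) were lower in the YAP nulls (2 of 37, against 4.55% of all kept genes). After Mst deletion 0 passed (1.89%). Cyp2c68 had means of 4.94 and 4.89 in the 2 Mst-deleted groups (-0.05 ± 0.46).

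Among the Cyp2a genes the spread between libraries was wide. Cyp2a4, a steroid hydroxylase of which females make more, was at 0.93 and 9.68 in the 2 wild type control libraries, at 1.38 and 0.72 in the YAP heterozygotes and at 4.41 and 2.43 in the YAP nulls. In the Mst experiment it was at 5.13 and 5.37, 3.50 and 2.77, and 4.08 and 4.56. With wild type libraries so far apart, its difference of -4.25 ± 1.65 in the YAP heterozygotes did not pass (adjusted p = 0.325). Cyp2a22 was at 1.79 and 3.30 in the wild type control, 5.38 and 1.97 in the YAP heterozygotes and 8.03 and 4.00 in the YAP nulls. Its difference in the YAP nulls was 3.47 ± 1.02 (adjusted p = 0.0528), with both libraries above the control. In the Mst experiment it was at 2.64 and 2.55 in the control, 4.03 and 3.62 in the heterozygotes and 4.37 and 4.86 in the nulls. Its near copy Cyp2a12 had differences of 0.68 to 0.79 in the 4 comparisons, and Cyp2a5, which oxidises coumarin and nicotine, had -1.68, -1.68, -0.90 and -0.07, none of them called.

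Cyp2b10, the standard target of CAR, was at 7.68 and 6.10 in the floxed control, 5.16 and 4.51 in the Mst heterozygotes and 3.66 and 5.94 in the Mst nulls. Its differences were -2.06 ± 1.01 and -2.09 ± 1.01 (adjusted p = 0.336 and 0.275) there and -1.14 and -0.55 under YAP S127A. Over the 6 genes listed as induced through CAR or PXR (Cyp2b10, Cyp2c29, Cyp2c55, Cyp3a11, Cyp3a13 and Cyp2a5), the medians were -1.20, -0.69, -0.79 and -0.15 in the 4 comparisons. By limma, 0 passed in any of them (1, 0, 1 and 1 without adjustment). Over the 6 tested genes listed as female-biased (Cyp2a4, Cyp2b10, Cyp2c38, Cyp2c39, Cyp2c69 and Cyp3a44), the medians were -2.66, -1.57, -2.09 and -1.51. Of these, Cyp2c39 fell in both YAP groups and Cyp2c69 in the Mst nulls.

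Among the Cyp2d genes, 7 in the set and 5 of them tested, the differences under YAP S127A were small, from -0.46 to 0.04. Cyp2d40, on chromosome 15, 82759833 to 82764183, minus strand, was at 5.01 and 4.41 in the floxed control, 3.75 and 3.33 in the Mst heterozygotes and 2.54 and 3.59 in the Mst nulls. It fell in the Mst nulls (-1.64 ± 0.45, adjusted p = 0.0362, a fold of 3.12), and its difference in the Mst heterozygotes was -1.16 ± 0.45 (adjusted p = 0.198). That call ended without library 1 (-1.34) or library 2 (-1.94) of the floxed control and without library 1 of the Mst nulls (-1.12). The other tested Cyp2d genes, Cyp2d10, Cyp2d12, Cyp2d22 and Cyp2d26, had differences between -0.71 and -0.08 after Mst deletion.

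The Cyp2j genes, epoxygenases of fatty acids, had their lower values under YAP S127A. Cyp2j6 was at 7.06 in both wild type libraries, 6.27 and 6.59 in the YAP heterozygotes and 6.41 and 6.70 in the YAP nulls. Its differences were -0.63 ± 0.23 and -0.51 ± 0.23 (adjusted p = 0.278 and 0.22), and -0.11 and -0.06 after Mst deletion. Cyp2j5 had -0.54 and -0.46 under YAP S127A and -0.20 and -0.39 after Mst deletion. Cyp2r1, a vitamin D hydroxylase, had 0.34 and 0.77 under YAP S127A and -0.27 and -0.19 after Mst deletion, and Cyp2u1, a fatty acid hydroxylase, had -0.62, -0.78, -0.17 and -0.51. None of these passed.

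The 13 genes that the filter left out were Cyp1b1, Cyp2b19, Cyp2c65, Cyp2c66, Cyp2d11, Cyp2d34, Cyp2j8, Cyp2j11, Cyp2j13, Cyp2s1, Cyp2t4, Cyp3a16 and Cyp3a57. Their log2 values lay between -2.30 and 0.79 in all 12 libraries, and no difference between groups is read from such low values. The levels of Cyp2c39 under YAP S127A and of Cyp2c69 in the Mst nulls were as low, so the sizes of their falls are uncertain. Taking in all 50 without a filter, the medians in the 4 comparisons were -0.12, -0.18, -0.18 and -0.15, against 0.03, 0.09, 0.01 and 0.07 over all genes.

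Of 18 listed genes that supply P450 enzymes with electrons and heme, by limma 0 were called in the YAP heterozygotes and in the Mst groups (4, 3 and 4 without adjustment). In the YAP nulls the last enzyme of heme synthesis, Fech, rose (1.03, adjusted p = 0.0365). The oxidoreductase gene Por was at 8.95 and 8.08 in the wild type control and 7.33 and 7.40 in the YAP heterozygotes, where its difference of -1.15 was the lowest of the list (adjusted p = 0.106). Alas1, the rate-limiting enzyme of heme synthesis, was at 9.12 and 8.61 in the floxed control, 7.01 and 7.49 in the Mst heterozygotes and 7.47 and 7.50 in the Mst nulls. Its differences of -1.61 and -1.38 were the lowest of the list in the Mst groups, and neither passed (adjusted p = 0.165 and 0.196). The heme-degrading Hmox1 had the highest difference of the list in all 4 comparisons (1.33, 1.35, 1.40 and 1.66, adjusted p = 0.301, 0.124, 0.153 and 0.0549).

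Of 25 listed regulators of P450 genes, 23 were tested. The gene of CAR, Nr1i3, was at 5.47 and 5.69 in the floxed control, 4.03 and 3.49 in the Mst heterozygotes and 4.47 and 4.77 in the Mst nulls. It fell in the first of these (-1.82, adjusted p = 0.0276). Nfe2l2, the regulator of the oxidative stress response, rose in both Mst-deleted groups (1.5, adjusted p = 0.00446 and 1.46, adjusted p = 0.00348). Bcl6, a repressor downstream of growth hormone, was at 5.12 and 4.32 in the floxed control and 7.96 and 6.68 in the Mst heterozygotes, where it rose (2.60, adjusted p = 0.0284). Cux2, another growth hormone dependent factor of female liver, was at 1.99 and 2.69 in the YAP nulls and at most 1.04 in the other 10 libraries. It passed the filter on low values through the YAP nulls, where it is high, and its call there is not used. In the YAP heterozygotes 0 of 23 passed by limma (2 without adjustment), and the medians of the list lay between 0.03 and 0.21.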

How the data were processed

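Ion AmpliSeq libraries, with 1 amplicon per gene, were sequenced by the authors from sorted hepatocytes, per the labels' protocols. The authors deposited log2 CPM values for 12 libraries (the labels call the unit RPM). The labels name no aligner, counter, build or adjustment between experiments. The depth of each library is therefore unknown, and no read counts can be given behind a value. Linear values summed to between 879620 and 1011693 CPM per library, and replicate libraries correlated at 0.953 to 0.982 across kept genes.

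The filter on low values (log2 of 1 or more in 2 or more libraries) passed 10681 of 16116 genes. A limma model (version 3.58.1, under R 4.3.3) of 6 group means took in all 12 libraries, with a trend in the prior, two-sided tests and Benjamini-Hochberg adjustment over all kept genes. It was tested on simulated data. Differences are on the log2 CPM scale, and SE is the standard error. Named are Cyp2e1, Cyp1a2, Cyp2c37, Cyp2c68 and every P450 gene that passed; others are described by level. The P450 genes and gene lists were chosen with earlier results of these data known. The lists of pericentral, female-biased, AHR-induced and CAR- or PXR-induced genes came from textbook knowledge. The median difference of the 2 tested AHR-induced genes was -0.77, -1.22, -0.86 and -0.72 in the 4 comparisons with a control, with 0 called by limma (0, 1, 1 and 0 without adjustment). Macrophage markers summed to 17.5 to 215.2 CPM per library, stellate markers to 22.6 to 78.3 CPM and leukocyte markers to 3.0 to 4.6 CPM. Alternatives covered the filter, the offset of the log scale, the scaling, the prior, the libraries fitted, a replicate block, each library left out, and the within-group distances before their inferred rescaling.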

Additional observations from a re-analysis of the deposited data

Results flagged for a closer look

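The difference from the control was compared between the experiments (Mst deletion minus YAP S127A, both with 1 floxed Sox9 allele). With the inferred rescaling of within-group distances undone, 10 of 37 P450 genes passed (5.91% of all kept genes did). As deposited, no P450 gene passed. Lower after Mst deletion were Cyp2c69 (-3.96, adjusted p = 0.0106 by limma, and 0.597 as deposited), Cyp2c37 (-3.15, 0.00256 and 0.337), Cyp2c68 (-2.51, 0.00152 and 0.225) and Cyp2e1 (-2.23, 0.0154 and 0.655). Higher after Mst deletion were Cyp2c44 (0.64, 0.0457 and 0.785), Cyp2f2 (1.03, 0.0113 and 0.694), Cyp3a25 (1.60, 0.00766 and 0.603), Cyp3a44 (2.51, 0.0143 and 0.599), Cyp3a11 (2.77, 0.00644 and 0.589) and Cyp2c39 (3.28, 0.00607 and 0.35). For Cyp2c39 the positive value means that it was less low than under YAP S127A. The controls of both experiments have the same gene means in the deposited values, so a difference between the controls would not be seen, and the experiments also differ in weeks after injection.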

How the results depend on the processing

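The calls of Cyp2c68 after Mst deletion and of Cyp2c39 under YAP S127A held under every alternative in which the gene was tested (Cyp2c39 has a mean log2 below 4 and drops out under that filter). Undoing the inferred rescaling raised the calls most. P450 genes called became 11 and 17 (YAP, Sox9-heterozygous and Sox9-null), 19 and 21 (Mst), 2 (Sox9-null against heterozygous, YAP) and 10 (difference between experiments). All genes called became 1237, 2964, 2116 and 2815 in the 4 comparisons with a control, 486 and 202 for Sox9 loss in the YAP and Mst experiments, 838 over both, 64 for its difference and 631 for the difference in activation. With no filter they were 72, 369, 189 and 416, then 5, 2, 5 and, for the difference in activation, 3, and 1 P450 gene was called in the Mst nulls. With a mean log2 of at least 4 they were 104 and 354 (YAP) and 485 (Sox9-null Mst), then 10, 0, 8 and 8, with 0 P450 genes called in either YAP group. Without a trend in the prior they were 705 (Sox9-null Mst), 6 (Sox9 loss, YAP), 8 (over both) and 3 (difference in activation), and 1 P450 gene was called in the Mst nulls. With only the 6 libraries of an experiment, all genes called were 483 (Sox9-null YAP), 402 (Sox9-heterozygous Mst), 9 and 2 (Sox9 loss, YAP and Mst), with 5 P450 genes in the Mst heterozygotes. In the YAP nulls all genes called were 484 once library medians were made equal and 449 with quantile normalization.

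The labels do not say that replicate numbers pair the libraries. Deviations of same-numbered libraries correlated at -0.117 to -0.0627 (YAP) and -0.644 to -0.315 (Mst). There the equal means of first and second Mst libraries force negative correlations, so the check for Mst says nothing about pairing. With the replicate block, 2 and 3 P450 genes were called in the YAP groups, 4 in the Mst heterozygotes and 6 in the Mst nulls. Of all 10681 kept genes, 177, 720, 438 and 802 were called in the same order, and 3 for the difference in Sox9 loss. The P450 genes newly called were Cyp2c38 in the YAP heterozygotes (adjusted p = 0.0397), Cyp2c67 and Cyp2a22 in the YAP nulls (0.0341 and 0.0179), Cyp2e1, Cyp2c37 and Cyp3a59 in the Mst heterozygotes (0.0309, 0.0288 and 0.023) and Cyp2e1 in the Mst nulls (0.0305).

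Leaving out 1 library at a time, all genes called ranged from 92 to 291, 328 to 471, 189 to 490 and 348 to 642 in the comparisons with a control. For Sox9 loss they ranged from 4 to 128 (YAP), 3 to 20 (Mst), 6 to 115 (both) and 0 to 18 (difference), and for the difference in activation from 0 to 39. P450 genes called ranged from 1 to 2, 2 to 5, 1 to 3 and 1 to 4, and from 0 to 1 for the difference in activation. The sign turned for Cyp2e1 in the YAP nulls (-2.20 to 0.41), Cyp1a2 in the YAP heterozygotes (-1.60 to 0.34) and its difference between experiments (-1.49 to 0.45), and Cyp2c37 in the YAP nulls (-0.99 to 2.11). It also turned for Cyp2c68 (-0.58 to 0.21 and -1.15 to 0.47) and Cyp2c69 (-0.28 to 0.75 and -1.33 to 3.13) in the 2 YAP groups. The others were Cyp2d40 (-0.84 to 0.63) and Cyp3a59 (-0.16 to 2.49) in the YAP heterozygotes and Cyp3a59 between experiments (-0.38 to 2.27). A lone remaining library is assumed to vary like the other groups. In all, 159 of 192 results kept direction and call when a library was left out, and 305 of 342 did under the other alternatives.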
